A study of Mus musculus with 74 samples.

Results

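The genes described here encode the conjugating enzymes of 3 families: the UDP-glucuronosyltransferases (Ugt), the glutathione S-transferases (Gst) and the cytosolic sulfotransferases (Sult). Members were taken by symbol, as every gene of the RNA count table whose name begins with Ugt or Sult and a number, or with Gst, a class letter and a number. This rule used no measured value. It gave 60 of the 24015 genes in the table, of which 21 are Ugt, 21 are Gst and 18 are Sult genes. The microsomal Mgst genes, which belong to another protein family, fall outside it.

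The study followed the epithelium of the mouse forestomach, hindstomach and small intestine through embryonic life and removed the transcription factor CDX2 at several stages. It holds 74 samples, of which the 31 RNA sequencing libraries, in 15 groups, were used; the 38 chromatin accessibility and 5 ChIP samples were not analysed here. Wild-type (WT) libraries came from untreated CD1 embryos at embryonic day (E) 12, E14 and E16 for each of the 3 organs and at E18 for the small intestine, with 2 libraries a group. Deletion at E10 refers to 3 libraries from small intestine of untreated Cdx2f/f; Shh-Cre embryos collected at E16, where Cre is made from the Shh gene of the early endoderm. Deletion at E13 and at E15 refers to 2 libraries each from Cdx2f/f; Villin-Cre embryos collected at E16 and E18, after 5 mg of tamoxifen by oral gavage; the Cre is active in intestinal epithelium. The adult comparison set 2 libraries of ileal villi from Cdx2f/f; Villin-Cre mice, given 1 mg of tamoxifen intraperitoneally on 5 days and killed 3 days later, against 2 from Cdx2f/f mice without Cre that received sunflower oil. All deleted mice, and the adult controls, were on a mixed B6;129 background. Strain and Cre therefore differ together with Cdx2 in the embryonic deletion comparisons, tamoxifen too in those at E13 and E15, and Cre and tamoxifen in the adult one, and their parts cannot be told apart.

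Conjugating enzymes attach a polar group to drugs, hormones, bile pigments and dietary chemicals, so that these can be pumped out of the cell and excreted. Ugt enzymes sit in the endoplasmic reticulum and transfer glucuronic acid from UDP-glucuronic acid, Gst enzymes add glutathione to reactive electrophiles, and Sult enzymes transfer sulfonate from the activated sulfate donor PAPS. Enterocytes, the absorptive cells of the small intestine, are a main site of this first-pass metabolism. Transcription factors that act on these genes include HNF4A in intestine and liver, CDX2 in intestine, NRF2 (from Nfe2l2) in the response to electrophiles, and the aryl hydrocarbon receptor.

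Sequencing depth, as the sum of a library's counts, lay between 5970227 and 62463167 (median 21910062); in the adult libraries it lay between 14788004 and 23164522. Levels are given as CPM, a gene's counts relative to its library's total after correction of that total by edgeR's TMM factor, and are compared across libraries, never between genes, since gene lengths were not used. A member was called where the edgeR quasi-likelihood test gave a Benjamini-Hochberg adjusted p below 0.05 over all genes tested, with a log2 fold change of at least 1 in size. Small intestinal markers (Vil1, Cdh17, Lgals4, Fabp2 and Muc13) took 0.431% to 0.432% of counts in the E16 WT intestine and 0.0621% to 0.0931% after deletion at E10, while glandular stomach markers (Cldn18, Gkn1, Gkn2, Tff2 and Sox2) took 0.000485% to 0.000628% and 0.249% to 0.558%; the part of such cells in the values below was not tested. Cdx2 stood at 196 and 218 CPM in E16 WT intestine and at 17.4, 14.5 and 27.5 CPM after deletion at E10. After the Villin-Cre deletions its counts were not lower than in WT: 213 and 217 CPM in the libraries labelled as deleted at E13, 388 and 371 CPM against 200 and 206 at E15, and 472 and 462 CPM against 242 and 248 in the adult. Gene counts need not show the loss of an exon, so these counts do not check those labels. The libraries labelled as deleted at E13 and collected at E16 were also compared in rank, over the 17239 genes kept for the embryonic tests. Their mean Spearman correlation was 0.957 with libraries deleted at E15 and collected at E18, and 0.933 with WT E18 intestine. With WT E16 intestine it was lower, at 0.840, and the libraries labelled E13 are described apart for that reason.

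Promoters are printed for members whose behaviour the deletion results turn on. Of the members that were called in one direction in the E10, E15 and adult comparisons alike, Gsta1, Sult1a1, Sult1c2 and Ugt1a6a were higher and Ugt1a1 was lower, and each had a promoter in the RefSeq table; Gsta4 had no entry there. Ugt1a9 and Ugt1a7c were added because they lie at the same locus as Ugt1a6a and Ugt1a1 and were called otherwise. Each line runs 5′ to 3′ on the gene's strand, from 200 bases before to 10 bases after the start site, in RefSeq's GRCm38.p6 assembly, and capitals mark matches to the motifs searched.
Gsta1: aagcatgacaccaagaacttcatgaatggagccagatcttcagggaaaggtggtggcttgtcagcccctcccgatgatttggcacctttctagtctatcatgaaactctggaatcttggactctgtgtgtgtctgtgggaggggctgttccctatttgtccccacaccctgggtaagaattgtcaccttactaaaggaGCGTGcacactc
Sult1a1: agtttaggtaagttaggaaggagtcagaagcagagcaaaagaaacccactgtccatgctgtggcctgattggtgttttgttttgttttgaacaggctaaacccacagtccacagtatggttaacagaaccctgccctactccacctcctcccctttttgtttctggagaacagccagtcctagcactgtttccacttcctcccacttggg
Sult1c2: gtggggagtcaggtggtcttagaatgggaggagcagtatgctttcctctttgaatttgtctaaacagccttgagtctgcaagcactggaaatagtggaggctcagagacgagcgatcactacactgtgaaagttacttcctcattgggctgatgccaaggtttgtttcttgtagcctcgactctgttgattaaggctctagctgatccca
Ugt1a6a: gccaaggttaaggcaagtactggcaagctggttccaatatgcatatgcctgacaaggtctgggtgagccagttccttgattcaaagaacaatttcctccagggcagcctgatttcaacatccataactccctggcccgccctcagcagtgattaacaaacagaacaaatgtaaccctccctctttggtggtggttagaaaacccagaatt
Ugt1a1: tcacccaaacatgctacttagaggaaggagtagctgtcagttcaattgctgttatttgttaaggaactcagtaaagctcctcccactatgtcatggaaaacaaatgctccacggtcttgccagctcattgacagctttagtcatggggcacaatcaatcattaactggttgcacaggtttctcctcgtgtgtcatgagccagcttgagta
Ugt1a9: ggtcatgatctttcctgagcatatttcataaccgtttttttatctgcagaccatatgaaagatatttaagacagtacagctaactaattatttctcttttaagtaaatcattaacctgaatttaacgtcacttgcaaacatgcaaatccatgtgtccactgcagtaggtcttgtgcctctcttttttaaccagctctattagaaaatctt
Ugt1a7c: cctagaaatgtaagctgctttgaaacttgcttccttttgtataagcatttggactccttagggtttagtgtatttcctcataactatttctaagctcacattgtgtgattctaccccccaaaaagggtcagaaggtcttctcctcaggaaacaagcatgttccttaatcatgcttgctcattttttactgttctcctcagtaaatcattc
The windows are chr9:78230469-78230678 for Gsta1, chr1:88134609-88134818 for Ugt1a6a, chr1:88211759-88211968 for Ugt1a1, chr1:88070579-88070788 for Ugt1a9 and chr1:88094801-88095010 for Ugt1a7c, all on the plus strand, and chr7:126676409-126676618 for Sult1a1 and chr17:53845949-53846158 for Sult1c2 on the minus strand. The motifs, searched on both strands, were TTTATNG (a CDX core), CAAAGTCCA (HNF4), TGACNNNGC (the antioxidant response element) and GCGTG (the core bound by the aryl hydrocarbon receptor). A motif of the transcription factor HNF1 had been planned too but was not searched, so lower-case letters say nothing of it.

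Within the printed windows Gsta1 carried GCGTG across its start site, and the other 6 windows held no match to these letters, which says nothing of the factors themselves. Over the whole 300-base windows of the 52 members with an entry, GCGTG occurred for 10 members, against 32.4% of all 32841 RefSeq promoters of that length. TTTATNG occurred for 6 of the 52 and in 10.9% of all promoters, TGACNNNGC for 3 and in 12.4%, and CAAAGTCCA for 1 and in 0.475%. A member was counted if any of its windows matched (62 windows for the 52 members), whereas the shares of all promoters count single windows. Genes of one locus can have related promoters, so these members are not independent draws.

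Most Gst genes were measured in every organ, while many Sult genes had no counts. Of the 60 members, 11 had no count in any of the 31 libraries: all 7 Sult2a genes (hydroxysteroid and bile acid sulfotransferases of the liver), Sult1c1, Sult3a1, Ugt2a2 and Ugt3a2. A count of 0 in this table need not mean that a gene is not expressed: the globin genes Hba-a1, Hba-a2, Hbb-bs and Hbb-bt were at 0 in all 31 libraries too, although the red cell gene Alas2 read 13300 and 18230 CPM in E16 forestomach. With Ugt2a1, Ugt2b37 and Ugt3a1, 14 members never passed 3 counts in a library. The filter on low counts kept 41 members for the embryonic tests (13 Ugt, 20 Gst and 8 Sult) and 32 for the adult test (8, 19 and 5), out of 17239 and 12444 genes. A member can pass it through 1 group in which it is high. Between 26 and 39 members were above 3 counts in each library of a group, with 27 in E16 forestomach, 38 in E16 small intestine and 31 in adult WT ileum. The E16 forestomach libraries were the shallowest, at 5970227 and 6335340 counts against 18306362 and 16685602 in E16 small intestine. Before TMM correction 3 counts stood for 0.502 and 0.474 CPM there, against 0.164 and 0.180 CPM, so these numbers also depend on depth.

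**Figure D1:**
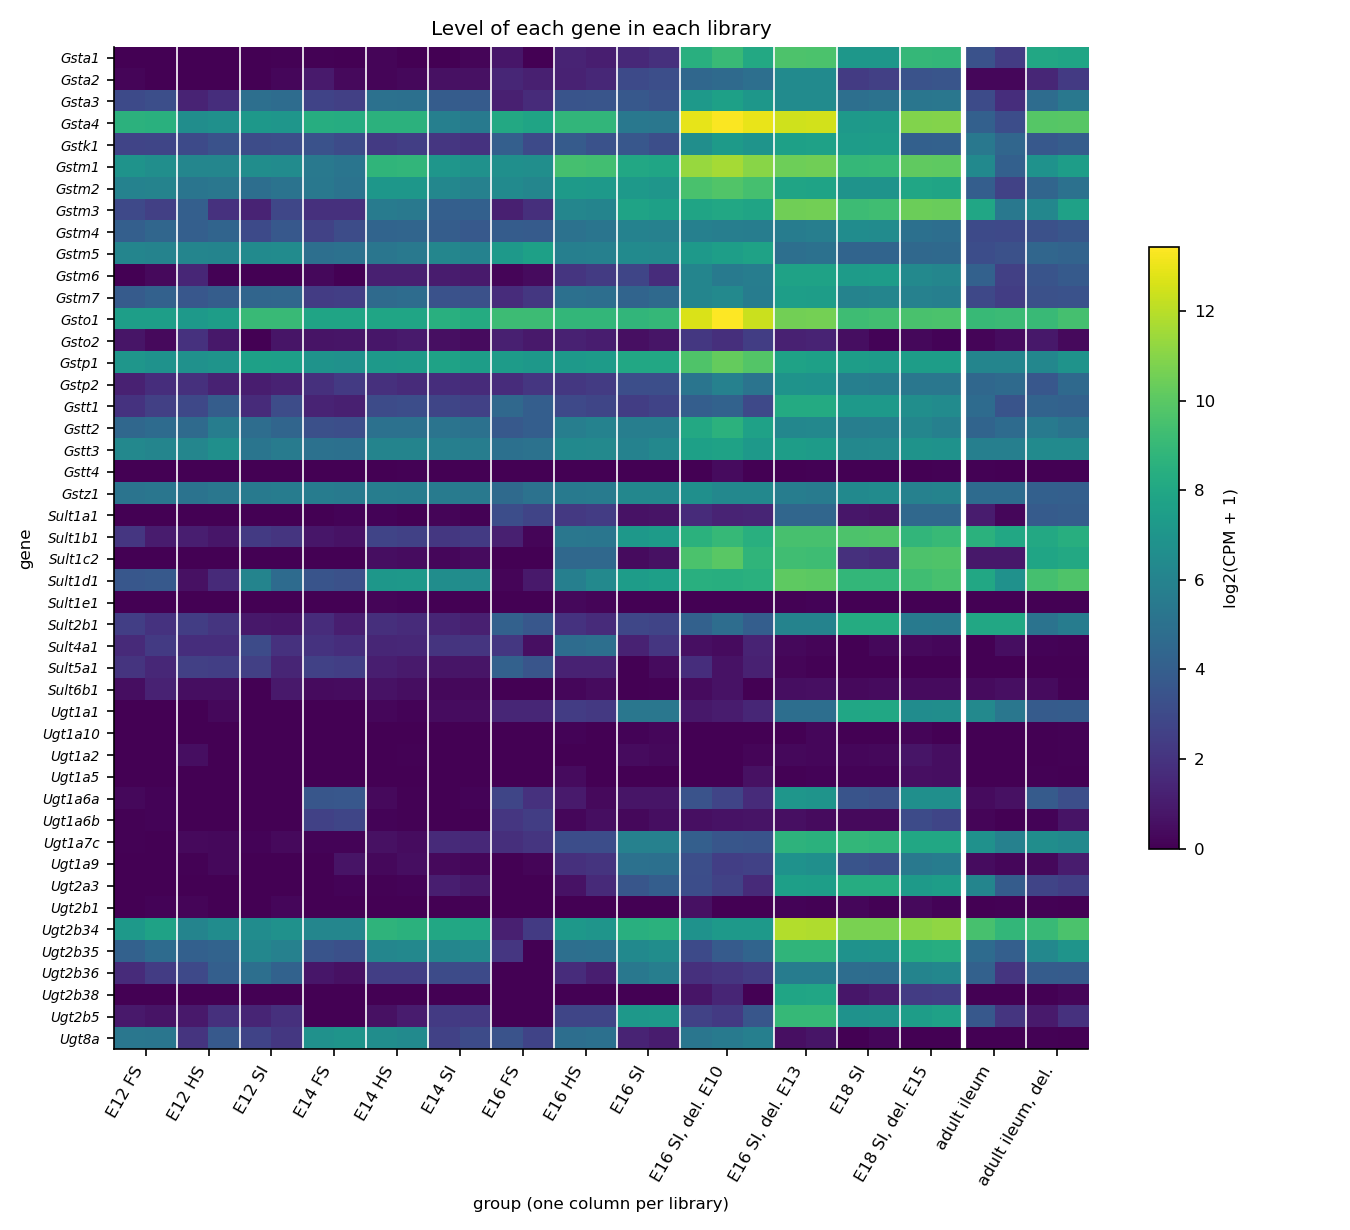
Level of each member above the detection floor (log2 of CPM + 1, colour scale) in each of the 31 libraries, with genes in lines by family and libraries in columns by group. Bright colours are high values and dark colours low ones. Most Ugt genes are dark in the E16 forestomach columns, and a block of Gst genes is brightest in the columns with Cdx2 deleted at E10 and E13.

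The 3 families together took up little of the embryonic gut transcriptome; their share rose in small intestine after E14 and in hindstomach after E12, and was higher in deleted than in WT libraries. It was 0.181% of all counts in both E12 WT small intestine libraries, 0.171% to 0.183% at E14, 0.312% to 0.324% at E16 and 0.542% to 0.550% at E18. In hindstomach it was 0.106% to 0.123% at E12, 0.310% to 0.311% at E14 and 0.324% to 0.330% at E16. In forestomach there was no such rise, with 0.172% to 0.173% at E12, 0.1425% to 0.1468% at E14 and 0.156% to 0.169% at E16. With Cdx2 deleted at E10 it was 1.26% to 1.68%, of which Gst genes made up 1.17% to 1.57% of all counts and Ugt genes 0.0130% to 0.0165%; in E16 WT intestine those 2 families took 0.193% to 0.195% and 0.0826% to 0.0899%. Deletion at E15 went with 0.954% to 0.994%, and adult deletion with 0.453% to 0.501% against 0.219% to 0.309% in adult WT. In bulk RNA such as this, fewer cells of a type and less RNA per cell cannot be told apart.

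**Figure D2:**
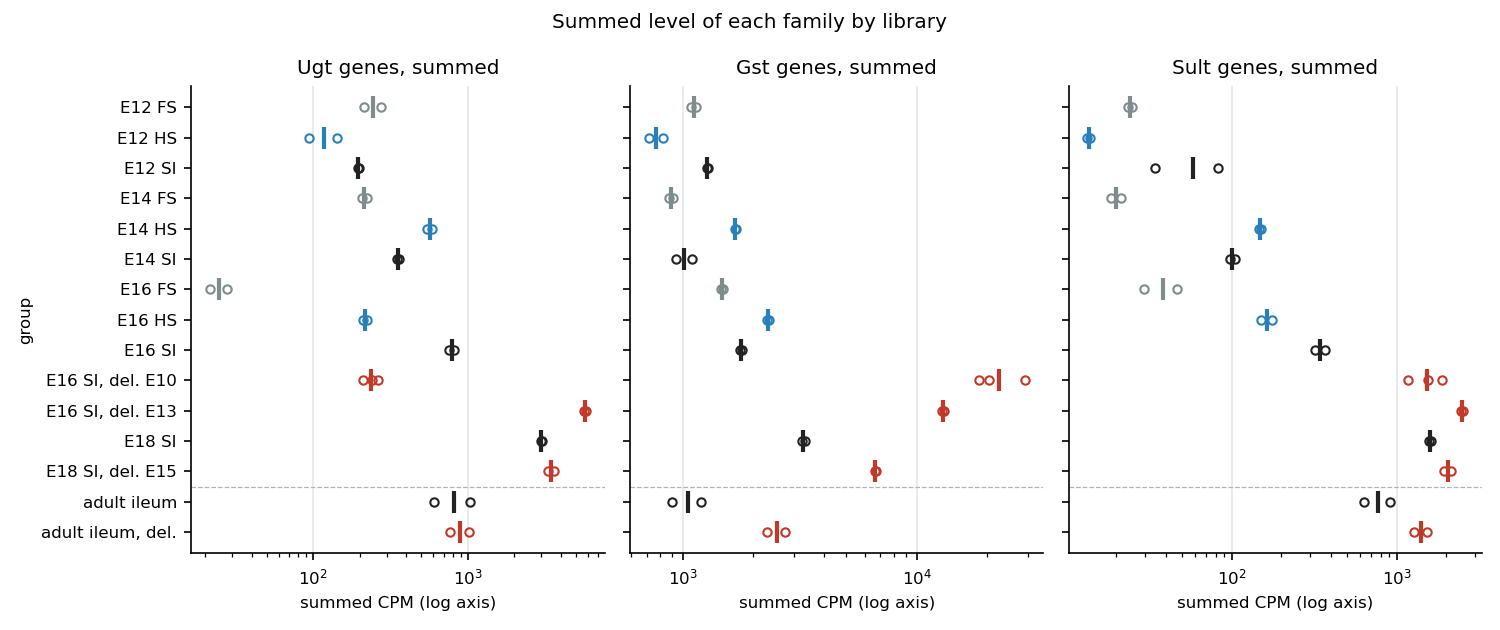
Summed level (CPM) of the Ugt, Gst and Sult members in every library, by group; open circles are libraries, vertical bars are group means, colours give the organ or a deletion, and the adult groups below the dashed line were scaled apart. The Gst sum is 18546 to 28916 CPM after deletion at E10 against 1761 and 1798 CPM in E16 WT intestine, whereas the Ugt sum is 209 to 261 CPM against 761 and 819 CPM.

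During normal development of the small intestine, the members called were mostly higher with age, both from E14 to E16, when villi form, and from E16 to E18. Of the 41 tested members, 21 were higher and 1 was lower at E16 than at E14, where 25.6% of all tested genes were called, 13.7% as higher and 11.9% as lower. From E16 to E18, 20 were higher and 5 lower (42.1% of all genes called, 20.1% as higher and 22.1% as lower). The median log2 change of the 41 was 1.09 and 1.01 in the 2 intervals, against -0.08 and -0.05 over all genes. With scaling by total counts, an alternative chosen after seeing the data, the second split became 15 higher and 9 lower, with 46.8% of all genes called, and the median over all genes moved to -0.70. E18 cells were shed as villi with EDTA while E16 cells were sorted for Epcam, so age and preparation cannot be told apart in that interval. Cell type markers moved too, and their part in these changes was not tested. Over E14, E16 and E18, the 5 small intestinal markers took 0.0751% to 0.0827%, 0.431% to 0.432% and 1.46% to 1.48% of counts. The 8 muscle and mesenchyme markers took 0.0283% to 0.0355%, 0.144% to 0.159% and 3.0e-05% to 7.4e-05%, with all 8 above 3 counts at E14 and E16 and 0 at E18. The 7 pancreas markers took 0.0322% to 0.0342%, 0.0661% to 0.0744% and 1.9e-05% to 3.4e-05%. For the 3 endothelial markers the values were 0.000178% to 0.000186%, 0.00326% to 0.00363% and 0.000235% to 0.000311%.

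Between E14 and E16 the steepest rises of members above the floor at both ages were those of Ugt1a9 and Ugt1a1. Ugt1a1, whose product conjugates bilirubin, stood at 0.381 and 0.355 CPM at E14, 38.5 and 39.4 CPM at E16 and 245 and 252 CPM at E18. Each age lay well above the last, with log2 changes of 6.69 ± 0.39 (SE; edgeR adjusted p = 2.6e-09) and 2.67 ± 0.30 (adjusted p = 1.2e-06). Ugt1a7c, transcribed from the same locus, went from 2.05 and 1.89 to 58.2 and 58.1 and then 467 and 445 CPM. Ugt2a3 rose from 1.17 and 0.789 at E14 to 11.2 and 15 at E16 and 320 and 320 CPM at E18 (4.61 ± 0.45 for the later step, adjusted p = 4.5e-07). Not all Ugt genes did this. Ugt2b5, 3.82 and 3.71 CPM at E14, was 143 and 154 CPM at E16 and 113 and 119 CPM at E18, so that its rise (5.29 ± 0.42, adjusted p = 2.2e-08) was seen in the first interval and its later change of -0.36 was not called. Ugt1a9 peaked at E16 with 31.3 and 30.1 CPM and was 10.2 and 8.78 CPM at E18 (-1.70 ± 0.51, adjusted p = 9.4e-03); without WT E18 replicate 2 that fall was -1.59 and not called. Ugt2b34 was 267 and 247 CPM at E14, 355 and 374 CPM at E16 and 1681 and 1709 CPM at E18, a later rise of 2.22 ± 0.22. Ugt8a, which makes galactosylceramide and so serves lipid synthesis rather than detoxification, was the 1 member that fell by E16, from 4.97 and 7.3 to 1.56 and 1.04 CPM, and at E18 it had 0 and 0.165 CPM.

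Among the Sult genes, Sult1b1, a sulfotransferase for phenols and thyroid hormone, went from 3.58 and 3.79 CPM at E14 to 139 and 165 at E16 and 798 and 833 CPM at E18. Both steps exceeded the spread between libraries (5.37 ± 0.35 and 2.42 ± 0.30; edgeR adjusted p = 1.4e-09 and 1.3e-06). Sult2b1, whose product sulfonates cholesterol, was at 1.62 and 1.26 CPM at E14, 6.14 and 5.79 CPM at E16 and then 307 and 303 CPM, a late rise of 5.68 ± 0.34 (adjusted p = 9.0e-11). Sult1c2 stayed low in WT intestine, with 0.302 and 0.491 CPM at E16 and 2.63 and 2.31 CPM at E18. Sult1d1, which acts on catecholamines, went from 172 and 192 to 471 and 474 CPM (1.37 ± 0.34).

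Among the Gst genes, Gsta1 rose from 1.91 and 2.62 CPM at E16 to 134 and 134 CPM at E18 (5.89 ± 0.39, adjusted p = 1.4e-09, edgeR), having been at or under 3 counts in both E14 libraries. Late rises were also large for Gstm6 (5.94 and 2.24 to 166 and 167 CPM), Gstt1 (4.38 and 5.4 to 150 and 145 CPM) and Gstk1, the kappa-class enzyme of mitochondria and peroxisomes (11.3 and 8.35 to 170 and 173 CPM). In each of these 3 genes both E18 libraries lay far above both E16 libraries. Gstm5 was the Gst gene that fell, from 85 and 77.7 to 18.8 and 19.2 CPM (-2.10 ± 0.16, adjusted p = 2.4e-09). Gsta4, whose enzyme clears the lipid peroxidation product hydroxynonenal, fell first, from 141 and 130 CPM at E12 to 53.5 and 44.8 CPM at E14 (-1.46 ± 0.14, adjusted p = 6.0e-07), and rose from 40.4 and 38.8 to 148 and 157 CPM between E16 and E18. Over the earliest interval, E12 to E14, 12 members were higher and 4 lower (16.2% of all genes called, 11.3% higher and 4.89% lower). Fitted on those 4 libraries alone, 1 was higher and 1 was lower, with 1.497% of all genes called.

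At E16 most Ugt genes were lower in both stomach regions than in intestine. There 8 of 13 Ugt genes were lower and 3 higher in forestomach, the region with a squamous lining, than in small intestine, and 8 were lower and 1 higher in hindstomach, the glandular region. Over all 41 members, 9 were higher and 22 lower in forestomach than in intestine (35% of all tested genes called, 18.6% higher and 16.4% lower), 7 higher and 14 lower in hindstomach than in intestine (25.7%; 17.5% higher and 8.1% lower), and 6 higher and 21 lower in forestomach than in hindstomach (20.1%; 6.27% higher and 13.8% lower). These 3 comparisons share libraries. At E14 the order of hindstomach and intestine was the other one for the summed Ugt level, at 590 and 546 CPM against 358 and 347 CPM; by E16 it was 223 and 209 CPM against 761 and 819 CPM. The median Ugt log2 difference was -5.68 for forestomach and -2.87 for hindstomach against intestine, against medians of 0 and 0.18 over all genes. E16 forestomach libraries held 0.0739% to 0.0826% of counts in Epcam, Cdh1, Krt8 and Krt18, against 0.677% to 0.702% in E16 intestine and 0.578% to 0.606% in hindstomach. They held 2.04% to 2.44% in 8 muscle and mesenchyme markers, all 8 above 3 counts, and 1.54% to 1.99% in blood markers (4 of 10 above 3 counts), against 0.144% to 0.159% and 0.0193% to 0.0197% in intestine; hindstomach libraries held 0.823% to 0.849% and 0.125% to 0.177%. The 7 pancreas markers took 0.243% to 0.276% in hindstomach and 0.0661% to 0.0744% in intestine, and the 5 nerve markers 0.0560% to 0.0576% and 0.00315% to 0.00427%. The part of these cells in the stomach values was not tested.

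Ugt2b5 had no count in either E16 forestomach library, 5.99 and 6.09 CPM in hindstomach and 143 and 154 CPM in intestine. Against a floor of 3 counts per library, forestomach was at least 320-fold lower than intestine. Ugt2b36 and Ugt2a3 were likewise at 0 in forestomach, at least 98.7-fold and 28.2-fold lower than in intestine, and Ugt1a9 was at 0 and 0.153 CPM, at least 66.3-fold lower. In hindstomach Ugt2b36 (2.22 and 1.17 CPM), Ugt2a3 (0.577 and 2 CPM) and Ugt1a9 (2.62 and 3.04 CPM) lay between those 2 organs. Ugt2b34 read 1.23 and 3.83 CPM in forestomach, 140 and 124 CPM in hindstomach and 355 and 374 CPM in intestine. It had been higher in both stomach regions at E14 (69.1 and 71.5 CPM; 419 and 380 CPM), in hindstomach above the 267 and 247 CPM of E14 intestine, and its fall to E16 was -4.79 ± 0.30 in forestomach and -1.59 ± 0.21 in hindstomach (edgeR adjusted p = 2.7e-10 and 1.4e-05).

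From E14 to E16, 10 members rose and 7 fell in forestomach (37.7% of all genes called, 20.8% higher and 16.9% lower), and 12 rose and 6 fell in hindstomach (22%; 16.5% higher and 5.5% lower). Over the same 2 days the 4 epithelial markers went from 0.368% to 0.377% of counts at E14 to 0.0739% to 0.0826% in forestomach, muscle and mesenchyme markers from 0.0132% to 0.0136% to 2.04% to 2.44%, and blood markers from 0.00349% to 0.00395% to 1.54% to 1.99%. In hindstomach muscle and mesenchyme markers went from 0.00649% to 0.00715% to 0.823% to 0.849%, blood markers from 0.00153% to 0.00163% to 0.125% to 0.177%, immune markers from 0.000899% to 0.00105% to 0.0355% to 0.0428%, nerve markers from 0.00214% to 0.00230% to 0.0560% to 0.0576% and endothelial markers from 0.000151% to 0.000156% to 0.0109% to 0.0152%. The part of these cells in the changes, the fall of Ugt2b34 included, was not tested. Ugt1a7c rose in both regions, from 0.0856 and 0.108 to 2.47 and 3.21 CPM in forestomach and from 0.494 and 0.338 to 7.94 and 8 CPM in hindstomach, to levels well below those of intestine. Both E14 forestomach libraries were at or under 3 counts of Ugt1a7c, so the size of its rise there is a lower bound. Ugt1a1 reached 1.7 and 1.68 CPM and 4.22 and 3.74 CPM there. Sult1d1 fell in forestomach from 10.1 and 9.22 to 0.154 and 0.919 CPM (-4.16 ± 0.69, edgeR adjusted p = 5.9e-05), and Gsta3 in hindstomach from 31.7 and 29.7 to 10.2 and 10.7 CPM (-1.56 ± 0.20, adjusted p = 9.5e-06).

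Some members were higher in stomach than in intestine. Ugt1a6a and Ugt1a6b, which conjugate phenols, were higher in E16 forestomach (5.87 and 2.76 CPM; 3.4 and 4.44 CPM) than in intestine (0.704 and 0.71 CPM; 0.201 and 0.437 CPM). The 2 groups did not overlap for either gene, and the log2 differences were 2.60 ± 0.66 and 3.60 ± 0.71 (edgeR adjusted p = 3.6e-03 and 4.6e-04). Without forestomach replicate 1, Ugt1a6a was at 1.95 and not called. At E14 Ugt1a6a was already 11 and 11.6 CPM in forestomach, against 0.247 and 0.0376 CPM in hindstomach. Sult2b1 was 17 and 11.5 CPM in E16 forestomach, 2.97 and 2.17 CPM in hindstomach and 6.14 and 5.79 CPM in intestine, and Gstm5 was 150 and 199, 55.1 and 57, and 85 and 77.7 CPM. For both genes forestomach was the high organ and hindstomach the low one. Against intestine the Sult2b1 call was lost without forestomach replicate 1 (0.94 on the log2 scale) and the Gstm5 call without replicate 2 (0.88).

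Gsta4, Sult1c2 and Ugt8a were higher in hindstomach than in intestine. Gsta4 read 452 and 451 CPM in E16 hindstomach and 269 and 230 CPM in forestomach, against 40.4 and 38.8 CPM in intestine (hindstomach minus intestine 3.51 ± 0.15 on the log2 scale, edgeR adjusted p = 9.7e-12). Sult1c2 read 22.5 and 22.3 CPM in hindstomach, 0.302 and 0.491 CPM in intestine and 0 in both forestomach libraries (5.81 ± 0.42 against intestine, adjusted p = 1.2e-07). It had been at 0.388 and 0.338 CPM in E14 hindstomach, so its hindstomach level rose by 5.92 ± 0.40 in 2 days. Ugt8a read 28.3 and 30 CPM in E16 hindstomach, down from 94.3 and 84.1 CPM at E14, and 1.56 and 1.04 CPM in E16 intestine. Gstm1, of the mu class, was 697 and 645 CPM in hindstomach, 260 and 238 CPM in intestine and 101 and 98.6 CPM in forestomach. Its 3 organs were apart by more than the spread between libraries. At E14 rather than E16 the forestomach differences of 13 calls had the other sign, 3 of them called that way; the values are given with the other settings.

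Deletion at E10 split the families: Gst genes rose and most Ugt genes fell. Of the 41 tested members 25 were higher and 9 lower than in E16 WT intestine, while 51.5% of all tested genes were called, 23.9% as higher and 27.6% as lower. By family, 17 of 20 Gst genes were higher and 0 lower, 5 of 8 Sult genes were higher and 1 lower, and 3 of 13 Ugt genes were higher and 8 lower. The median log2 change was 2.40 for Gst, 1.63 for Sult and -2.22 for Ugt genes, against -0.10 over all genes. TMM factors were 0.542 to 0.651 in the deleted libraries and 1.09 and 1.1 in the WT ones, and scaling by total counts (chosen after seeing the data) moved the median of all genes to -0.95. Under that scaling 56.1% of all genes were called, and 16 members were higher and 10 lower: Gst 11 higher and 1 lower, Sult 2 and 1, Ugt 3 and 8. Markers of other cells moved as well. Muscle and mesenchyme markers took 0.00874% to 0.0118% of counts after deletion against 0.144% to 0.159% in WT, immune markers 0.00113% to 0.00317% against 0.0144% to 0.0159%, and blood markers 0.000326% to 0.000655% against 0.0193% to 0.0197%. The 3 squamous markers took 0.00343% to 0.0138% against 0 to 5.5e-05%. The part of such cells in the changes was not tested.

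Gst genes of the alpha, mu, omega and pi classes reached high levels. Gsta4, 40.4 and 38.8 CPM in E16 WT intestine, was 7738, 10523 and 7944 CPM in the 3 deleted libraries. The groups were far apart, with a log2 fold change of 7.79 ± 0.18 (edgeR adjusted p = 4.9e-16). Gsta1 was 357, 548 and 270 CPM against 1.91 and 2.62 CPM (7.44 ± 0.40, adjusted p = 5.2e-11), and Gsta3 was 148, 195 and 137 CPM against 11.9 and 9.72 CPM (3.89 ± 0.21). Gsto1, an omega-class enzyme that acts as a thioltransferase and reduces dehydroascorbate, was 6494, 10920 and 5271 CPM against 462 and 490 CPM (3.99 ± 0.22, adjusted p = 1.8e-11). Gstm1 was 2631, 3074 and 2096 CPM against 260 and 238 CPM (3.38 ± 0.15), and Gstp1, the pi-class enzyme, was 844, 1226 and 918 CPM against 264 and 261 CPM (1.92 ± 0.14, adjusted p = 6.2e-10). In all 6 genes the lowest deleted library exceeded the highest WT library. Gstk1 (98.8, 159 and 123 CPM) and Gstm6 (68, 43.6 and 49.8 CPM) rose to levels below those of WT intestine at E18. Of the theta-class genes, Gstt2 was 275, 391 and 201 CPM against 52.2 and 53.3 CPM (2.45 ± 0.28), and Gstt1 14.9, 17.7 and 6.67 CPM against 4.38 and 5.4 CPM. The Gstt1 call (1.44 ± 0.45) was lost without WT E16 replicate 1, at 1.29, and under total counts, at 0.57. Gstm3, Gstm4 and Gstz1, the last a maleylacetoacetate isomerase of tyrosine breakdown, were not called, with log2 changes of 0.19 ± 0.42, -0.17 ± 0.19 and 0.21 ± 0.15.

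Sult1c2 had the largest change of the Sult genes. It was 796, 1001 and 439 CPM after deletion at E10 against 0.302 and 0.491 CPM in E16 WT intestine, and 22.5 and 22.3 CPM in E16 hindstomach. The deleted libraries were thus above every WT library of the series, and the log2 fold change against intestine was 10.87 ± 0.43 (edgeR adjusted p = 3.2e-11). Sult1b1 was 373, 514 and 351 CPM against 139 and 165 CPM (1.44 ± 0.27) and Sult2b1 17.2, 26.7 and 15.3 CPM against 6.14 and 5.79 CPM (1.73 ± 0.28), and under total counts both stayed below a log2 change of 1 (0.58 and 0.86). Sult1a1, a phenol sulfotransferase, was 2.14, 1.51 and 1.61 CPM against 0.554 and 0.655 CPM. Its call (1.54 ± 0.65, adjusted p = 0.049) was lost in 8 other settings, at log2 changes from 0.70 to 1.65.

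Ugt genes fell at both the Ugt1a and the Ugt2b locus, each of which also held 1 gene called higher, Ugt1a6a and Ugt2b38. Ugt1a1 went from 38.5 and 39.4 CPM to 0.802, 1.01 and 1.73 CPM, without overlap (-5.12 ± 0.33, edgeR adjusted p = 7.4e-10). Ugt2b5 went from 143 and 154 to 5.28, 3.94 and 11.1 CPM (-4.50 ± 0.35, adjusted p = 2.4e-09), Ugt2b36 from 39.8 and 51.6 to 2.6, 3.27 and 3.95 CPM (-3.82 ± 0.36), and Ugt2b35 from 81.7 and 94 to 7.15, 13.4 and 19 CPM (-2.77 ± 0.34). These 4 genes were low in each deleted library. Smaller falls were those of Ugt1a9 (8.48, 4.7 and 5.06 CPM, -2.32 ± 0.46), Ugt1a7c (15.8, 11.2 and 10.1 CPM, -2.22 ± 0.18) and Ugt2b34 (112, 145 and 150 CPM, -1.43 ± 0.19). Ugt2a3 was 7.95, 5.29 and 1.98 CPM against 11.2 and 15 CPM (-1.30 ± 0.39), a call lost without WT E16 replicate 2 (-1.08), without the third deleted library (-0.97), with a replicate block (-0.95) and in a fit on these groups alone (-1.32). Ugt1a6a and Ugt8a went up: 9.62, 5.7 and 2.1 CPM against 0.704 and 0.71 CPM (3.07 ± 0.59, adjusted p = 2.3e-04), and 37.7, 43.6 and 54.7 CPM against 1.56 and 1.04 CPM (5.11 ± 0.52, adjusted p = 9.6e-08). Ugt2b38 read 0.668, 1.59 and 0 CPM against 0 in both WT libraries, so that its groups overlapped, and DESeq2 did not call it (adjusted p = 0.44). The Ugt8a level lay above that of E16 hindstomach and below that of E14 hindstomach.

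Deletion at E15, read at E18, moved fewer members. Of 41 tested, 11 were higher and 4 lower than in E18 WT intestine, with 17.5% of all genes called, 7.79% as higher and 9.7% as lower. The median log2 change was 0.32, against 0 over all genes. By family 6 Ugt genes were higher and 1 lower, 3 Gst genes higher and 2 lower, and 2 Sult genes higher and 1 lower. Small intestinal markers took 1.02% to 1.05% of counts after deletion and 1.46% to 1.48% in WT. The 5 glandular stomach markers took 0.00278% to 0.00300% after deletion, 4 of them above 3 counts, and 2.7e-05% to 2.9e-05% in WT. The 7 immune markers took 0.000917% to 0.00102% after deletion and 0.0188% in both WT libraries; Ptprc, carried by all white blood cells, read 6.41 and 7.26 CPM against 197 and 201 CPM. The part of such cells in these changes was not tested.

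Sult1c2 again showed the largest change, 805 and 841 CPM against 2.63 and 2.31 CPM (8.39 ± 0.37, edgeR adjusted p = 1.5e-09). Gsta4 was 1904 and 1956 CPM against 148 and 157 CPM (3.67 ± 0.15, adjusted p = 5.5e-12) and Sult1a1 22.2 and 21.8 CPM against 0.74 and 0.604 CPM (5.03 ± 0.75, adjusted p = 6.6e-05). Deleted libraries of these 3 genes stood far above both WT ones. Ugt1a6a was 100 and 103 CPM against 10 and 9 CPM (3.42 ± 0.53), and its neighbour Ugt1a6b 7.49 and 5.89 CPM against 0.247 and 0.274 CPM (4.65 ± 0.75). Gsta1 was 490 and 474 CPM against 134 and 134 CPM (1.85 ± 0.30), and Gstm1 1142 and 1107 CPM against 489 and 513 CPM (1.17 ± 0.15). Gstk1 and Sult2b1, which rise late in WT intestine, fell: Gstk1 was 16.5 and 16.6 CPM against 170 and 173 CPM (-3.37 ± 0.28, adjusted p = 5.3e-08), and Sult2b1 44.3 and 41.5 CPM against 307 and 303 CPM (-2.83 ± 0.29, adjusted p = 5.7e-07). Ugt1a1 was 92.6 and 94.6 CPM against 245 and 252 CPM (-1.41 ± 0.29, adjusted p = 1.3e-03), and Gstm4 29.9 and 27.9 CPM against 90 and 88.8 CPM (-1.63 ± 0.21). Gsto1, so high after deletion at E10, read 744 and 770 CPM against 611 and 647 CPM and was not called (0.27 ± 0.21).

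**Figure D3:**
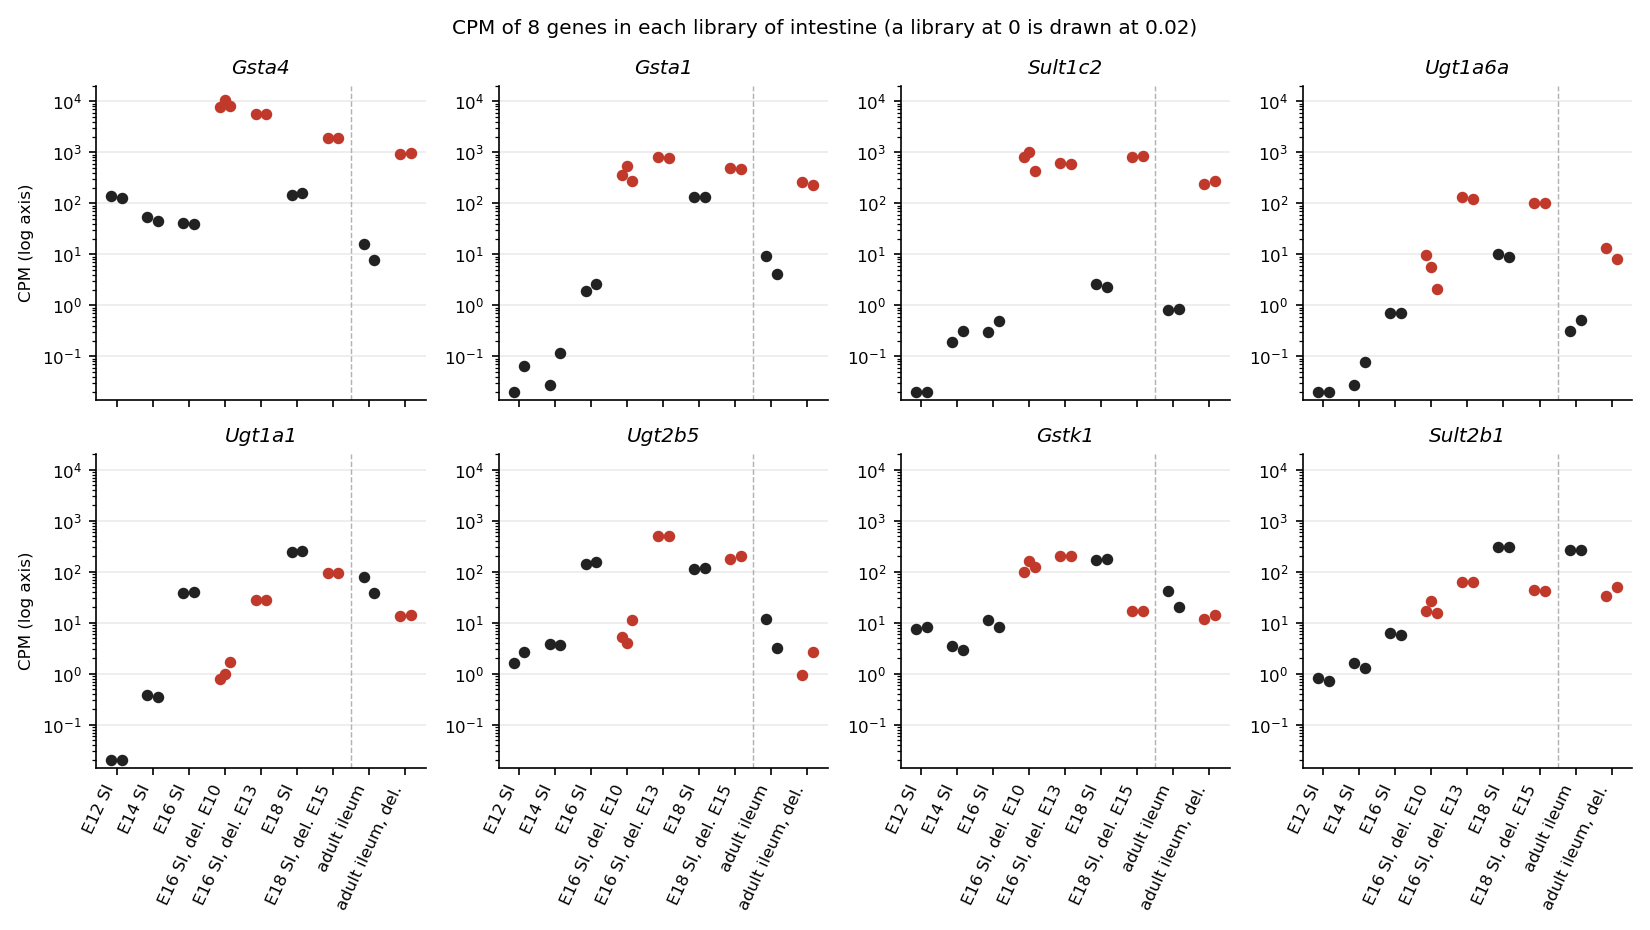
Level (CPM, log axis, 0 drawn at 0.02) of 8 members in every small intestine and adult ileum library, with Cdx2-deleted libraries in red. Gsta4, Gsta1, Sult1c2 and Ugt1a6a are higher in deleted libraries of each stage, Ugt1a1 is lower in each, though not called for those labelled E13 (27.7 and 28 CPM against 38.5 and 39.4 CPM), and Gstk1 and Sult2b1 rise after deletion at E10 and fall after deletion at E15.

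The effect of deletion at E10 differed from that of deletion at E15 in 27 of 41 members by a test of the difference itself, 18 with the E10 effect more positive and 9 with it more negative (41.1% of all genes called, 19.7% as more positive and 21.4% as more negative). Under total-count scaling the split was 13 and 11, with 46.3% of all genes called and their median at -1.02. All 14 called Gst genes had the more positive effect at E10 (9 of 10 under total counts), and 8 of the 9 called Ugt genes the more negative one. Of the 41 members 5 were called in opposite directions, as were 3.28% of all genes tested. They were Gstk1 and Sult2b1, higher after deletion at E10 and lower after deletion at E15, and Ugt1a9, Ugt2b35 and Ugt2b36, lower at E10 and higher at E15. For Gstk1 the difference in effect was 7.07 ± 0.40 (edgeR adjusted p = 9.3e-11) and for Sult2b1 4.56 ± 0.40 (adjusted p = 2.3e-08). Ugt1a9 was 41.5 and 48.6 CPM after deletion at E15 against 10.2 and 8.78 CPM (2.25 ± 0.52), Ugt2b35 303 and 326 CPM against 114 and 118 CPM (1.44 ± 0.36), and Ugt2b36 65.3 and 73.6 CPM against 26.4 and 25.9 CPM (1.41 ± 0.37). The Ugt2b36 rise fell just outside the adjusted p of 0.05 without either WT E18 library or without the second deleted one, at 1.31 to 1.42. Ugt2b5 was 179 and 200 CPM against 113 and 119 CPM, not called (0.71 ± 0.34), and its effects at the 2 stages differed by -5.22 ± 0.50. These 2 comparisons share no library, but they differ in the Cre driver, in tamoxifen, in the age of collection and in cell preparation as well as in the day of deletion, which cannot be told apart.

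**Figure D4:**
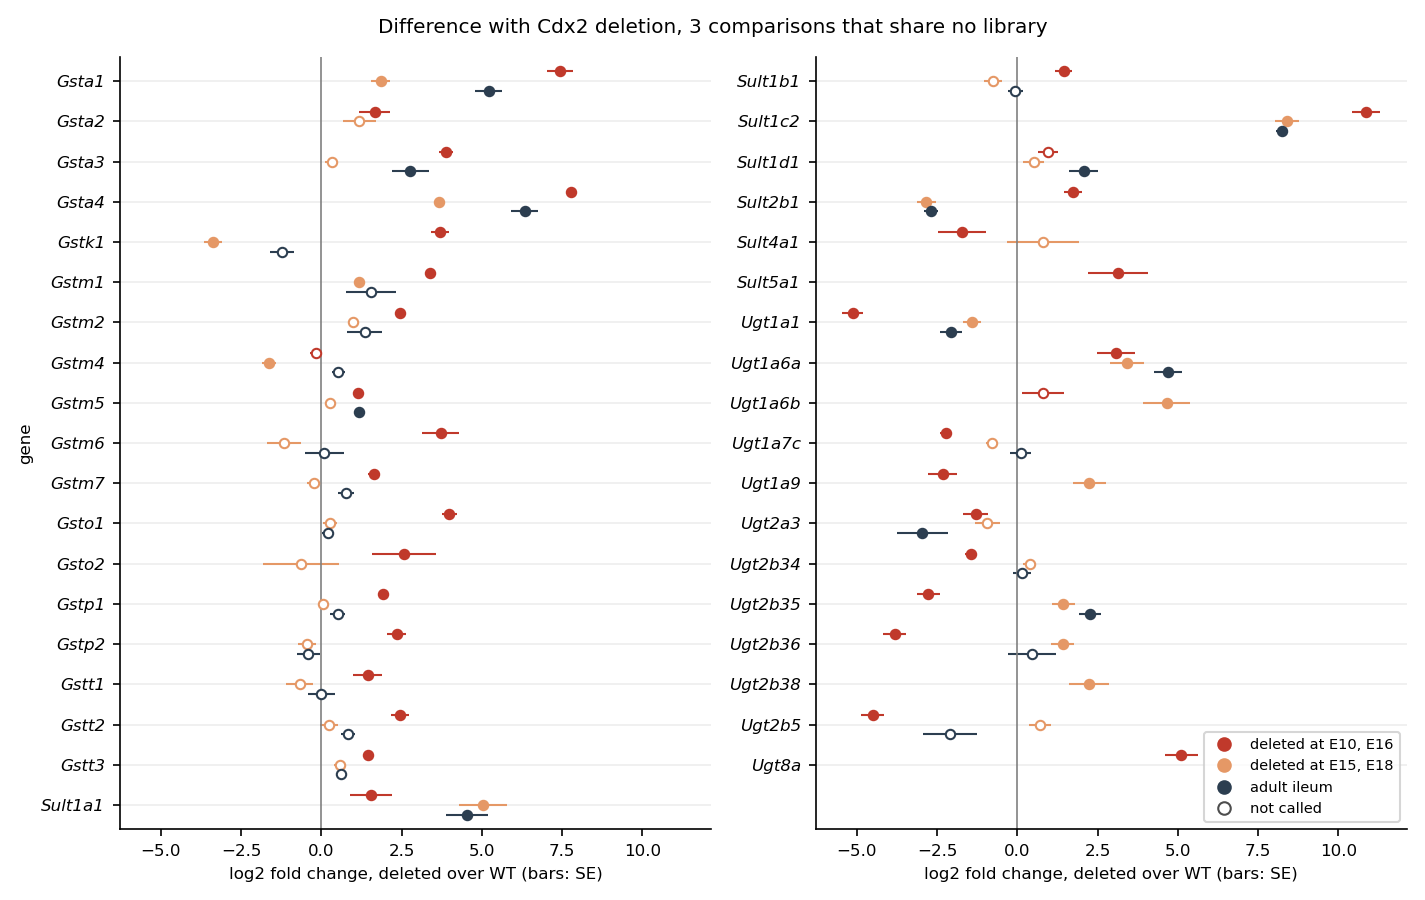
Log2 fold change (± SE) of members called in at least 1 of the E10, E15 and adult deletion comparisons; open symbols were not called, and fits with a group at the detection floor are left out. Gsta4, Gsta1, Sult1c2, Sult1a1 and Ugt1a6a lie to the right and Ugt1a1 to the left in all 3, while Gstk1, Sult2b1, Ugt1a9, Ugt2b35 and Ugt2b36 lie on opposite sides at E10 and E15.

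In the adult ileum 10 of the 32 tested members were higher and 3 lower after deletion, with 20.4% of all genes called, 8.41% as higher and 12% as lower, and a median log2 change of 0.51 against 0.01 over all genes. Gst genes were higher in 5 cases and lower in 0, Sult genes 3 and 1, and Ugt genes 2 and 2. Sult1c2 was 237 and 273 CPM against 0.813 and 0.85 CPM (8.25 ± 0.18, edgeR adjusted p = 5.2e-04), Gsta4 947 and 982 CPM against 16 and 7.88 CPM (6.34 ± 0.42, adjusted p = 2.3e-03) and Gsta1 262 and 232 CPM against 9.26 and 4.14 CPM (5.21 ± 0.43, adjusted p = 3.2e-03). All 3 genes had also been called higher at E10 and E15, and again no deleted library overlapped a WT one. Ugt1a6a was 13.6 and 8.2 CPM against 0.313 and 0.51 CPM (4.70 ± 0.44, adjusted p = 4.2e-03) and Ugt2b35 75.2 and 120 CPM against 24.9 and 15.5 CPM (2.27 ± 0.34). Sult2b1 was 33.3 and 49 CPM against 264 and 261 CPM (-2.68 ± 0.22, adjusted p = 3.2e-03). Epithelial markers (Epcam, Cdh1, Krt8 and Krt18) took 1.11% to 1.25% of counts after deletion and 0.681% to 0.911% in WT, immune markers 0.000419% to 0.000501% and 0.00259% to 0.00566%, and glandular stomach markers 0.000535% to 0.0011% and 0 to 1.2e-05%. Their part in the adult changes was not tested.

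The other adult calls were less firm. Sult1a1 (13.5 and 14.8 CPM against 1.06 and 0.17 CPM), Sult1d1 (715 and 856 against 264 and 109), Gsta3 (25.8 and 39.7 against 7.32 and 2.32), Ugt1a1 (13.6 and 14.2 against 77.2 and 38.8) and Ugt2a3 (5.76 and 4.71 against 67.9 and 14.2) each lost its call when either deleted library was left out. Groups did not overlap for any of these 5 genes. The 2 WT adult libraries differed from each other by more than 2-fold in 13 of 31 members above the floor, up to 6.07-fold for Gstm3 (248 and 40.9 CPM); the median ratio was 1.63, against 1.04 in E18 WT intestine. Gstk1 was 11.8 and 14.4 CPM against 40.8 and 20.4 CPM and did not pass the test (-1.22 ± 0.36, adjusted p = 0.058, edgeR).

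The comparisons at E10, at E15 and in the adult have no library in common. Among the 32 members tested in all of them, 5 were called higher each time: Gsta1, Gsta4, Sult1a1, Sult1c2 and Ugt1a6a. They made up 23.8% of the 21 called higher at E10, 62.5% of the 8 at E15 and 5 of the 10 in the adult. Ugt1a1 was the 1 member called lower each time, or 14.3%, 25.0% and 33.3% of the 7, 4 and 3 called lower. Over all 12408 genes tested in the 3 comparisons, 1.35% were called higher and 3.33% lower each time, so the 1 of 32 members called lower is near the background. The adult calls of Sult1a1 and Ugt1a1 were lost without either deleted library, and the call of Sult1a1 at E10 was lost in 8 other settings. Sult1a1 stayed under 3 CPM after deletion at E10 and reached 21.8 CPM or more after deletion at E15.

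Libraries labelled as deleted at E13 had 26 of 41 members higher and 2 lower than in E16 WT intestine (39.5% of all genes called, 18.7% higher and 20.8% lower; the comparison shares its WT libraries with the one at E10). Scaled by total counts 24 were higher and 5 lower, with 44.8% of all genes called and their median at -0.65. Gsta4 read 5638 and 5778 CPM, Sult1c2 621 and 597 CPM, Gsta1 813 and 787 CPM and Ugt1a6a 134 and 124 CPM. All 8 called Ugt genes were higher (7 higher and 2 lower under total counts): Ugt2b34 read 3722 and 3581 CPM against 355 and 374 CPM (3.32 ± 0.23, edgeR adjusted p = 6.1e-10), Ugt2b5 508 and 509 CPM, Ugt1a7c 414 and 385 CPM and Ugt2a3 187 and 180 CPM. Set beside E18 WT intestine, Ugt2b34 and Ugt2b5 were above the WT levels (1681 and 1709 CPM; 113 and 119 CPM), while Ugt1a7c and Ugt2a3 were below them (467 and 445 CPM; 320 and 320 CPM). Ugt2b38 read 237 and 240 CPM, had no count in any WT library before E18 and read 0.74 and 1.1 CPM in WT E18, so the libraries labelled E13 were at least 1459-fold higher than E16 WT; DESeq2 did not call it (adjusted p = 0.093). Gstm5 fell (29 and 31.2 CPM against 85 and 77.7 CPM, -1.43 ± 0.15). Glandular stomach markers took 0.181% to 0.186% of counts in these libraries and small intestinal markers 0.707% to 0.718%. Muscle and mesenchyme markers took 0.00410% to 0.00419%, pancreas markers 0.00277% to 0.00280% and blood markers 0.000228% to 0.000282%, against 0.144% to 0.159%, 0.0661% to 0.0744% and 0.0193% to 0.0197% in E16 WT intestine, and the part of such cells was not tested. Against WT E18 intestine instead, a comparison added after the likeness to E18 had been seen, 19 members were higher and 2 lower, with 16.1% of all genes called, and 6 of the 28 members called changed sign, 1 of them (Sult2b1) called the other way, as given with the other settings.

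Of 41 tested members, 15 had their highest embryonic group mean in the libraries labelled E13, 10 (all of them Gst) after deletion at E10, 5 after deletion at E15, 7 in WT E18 intestine and 1 each in E12, E14 and E16 forestomach and E16 hindstomach. The libraries labelled E13 differed little from each other, with a median ratio of 1.04 between the higher and the lower library over members above the floor. After deletion at E10 the ratio was 1.56, there between the highest and the lowest of 3 libraries. In that group 11 of 38 members differed by more than 2-fold, up to 4.58-fold for Ugt1a6a.

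Genes that feed, assist or regulate conjugation were read from a list of 44, of which 43 were tested in embryos and 41 in adults. In normal intestine 20 of the 43 were higher and 2 lower from E14 to E16, where 13.7% and 11.9% of all genes were, and 17 higher and 7 lower from E16 to E18, where 20.1% and 22.1% of all genes were. Of the 11 genes of cofactor supply, 3 were higher and 3 lower in the later interval. Papss2, which makes PAPS for the Sult enzymes, went from 37.7 and 40.4 CPM at E16 to 3827 and 3831 CPM at E18. Ugdh, which makes UDP-glucuronic acid, rose in both intervals (1.45 ± 0.13 and 1.28 ± 0.13). After deletion at E10, 9 of the 43 were higher and 17 lower, against 23.9% and 27.6% of all genes. The microsomal transferases Mgst1, Mgst2 and Mgst3 rose (1.71 ± 0.19, 4.46 ± 0.22 and 3.44 ± 0.16), as did Nfe2l2 (1.49 ± 0.12) and its known target Nqo1, from 20.6 and 20.8 to 515, 570 and 226 CPM. Among the regulators that fell was Hnf4a, from 389 and 349 to 23.7, 23.3 and 44.7 CPM. Also lower were Abcc2, the apical pump for glucuronide and glutathione conjugates (-4.13 ± 0.26), Ggt1, which breaks down glutathione outside the cell (-3.83 ± 0.38), and Papss1 (-2.71 ± 0.14).

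After deletion at E15, 4 of the 43 were higher (Gclc, Mgst1, Gusb and Ahr) and 6 lower (Papss2, Slc26a1, Ggt1, Mgst2, Abcg2 and Abcb1a), near the 7.79% and 9.7% of all genes. Hnf4a and Nfe2l2 were not among those called. In the adult 8 of 41 were higher and 4 lower, against 8.41% and 12% of all genes. The higher ones were led by the export pump Abcc4 (4.40 ± 0.19), the cystine transporter Slc7a11 (2.54 ± 0.34) and the glucuronide hydrolase Gusb (2.51 ± 0.16), and the lower ones included Abcb1a (-4.35 ± 0.20), Ggt1 (-2.93 ± 0.42) and Papss1 (-1.79 ± 0.13). Mgst1 rose and Abcb1a and Ggt1 fell at E15 and in the adult alike. After deletion at E10 these 3 genes went the same ways.

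Members lie in clusters, and neighbours did not always move together. On chromosome 5, 13 members from Ugt2b34 to Sult1e1 follow each other with 0 other coding genes between them in the RefSeq order. After deletion at E10 Ugt2b34, Ugt2b35, Ugt2b36, Ugt2b5 and Ugt2a3 were lower there, while Ugt2b38 and Sult1b1, in the same run, were higher and Sult1d1 was not called (354, 344 and 365 CPM against 172 and 192 CPM, 0.96 ± 0.31). At the Ugt1a locus on chromosome 1, where alternative first exons are joined to shared later ones, Ugt1a6a was higher and Ugt1a1, Ugt1a7c and Ugt1a9 were lower. After deletion at E15 Ugt1a9, Ugt1a6b and Ugt1a6a were higher, Ugt1a1 was lower and Ugt1a7c was not called (-0.78 ± 0.19). Of the 7 Gstm genes that are adjacent on chromosome 3, 5 were higher after deletion at E10 and Gstm3 and Gstm4 were not called. On chromosome 9, Gsta4 and Gsta1 are neighbours and rose in each deletion comparison. Reads that match several Ugt1a transcripts through the shared exons, or near-identical copies such as Gsta1 and Gsta2, Gstp1 and Gstp2, Ugt1a6a and Ugt1a6b and the Gstm and Ugt2b genes, could be split or dropped in counting, so values of single genes in these groups are uncertain.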

How the data were processed

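The deposited table holds raw read counts per gene, which the authors made from 75 bp single-end reads; the submitters' processing notes name STAR 2.5.3a, HTSeq and mm9 without saying how genes were counted, and the strand setting is not given in the sources used here. Embryonic libraries used a SMARTer kit and adult ones TruSeq, per the labels' protocols, so the adult libraries were fitted apart. Before analysis, 2 blank cells in the adult columns were closed up, which moved 39 members into register: over the 2 shifted stretches, the Spearman correlation of adult libraries with WT E18 intestine was 0.282 to 0.297 and 0.483 to 0.495 as deposited, and 0.931 to 0.962 and 0.957 to 0.973 once realigned. A further 2 columns matched no sample of the series and were not used, and 2 entries without a gene name were left out.

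Counts were tested over all genes with R 4.3.3 and edgeR 4.0.16 (TMM scaling, filterByExpr with its minimum count of 10, quasi-likelihood test), with DESeq2 1.42.0 as an alternative and limma 3.58.1 for edgeR's fits. The script was tested on simulated counts: with 200 changed genes it recovered 136 of them, with 6 false calls among 16992 genes, in the E15 design and 133, with 16 false calls among 12057 genes, in the adult design. Part of these changes were set at exactly a log2 fold change of 1, the minimum for a call, where they are easily missed. Counts were drawn from the fitted spread, so the false calls do not measure the real differences between libraries. Groups hold 2 or 3 libraries and nothing says that these came from separate animals, so p-values measure the spread between samples, which may be technical. Reads carry no molecular identifiers and are not independent molecules. A fold against a group at or under 3 counts per library is a lower bound.

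Values are printed per library for members called, with groups that do not overlap and an average log2 CPM of at least 2, that were among the 4 largest changes in a direction in any comparison, and for the member of each class with the highest mean CPM, which served to choose members and ranks no genes; others are named as examples. Members, pathway list and markers were chosen with earlier results of these data known. Promoters came from RefSeq (GRCm38.p6), matched by symbol. Alternatives were another scaling, DESeq2, no filter, fits on the compared groups alone, a replicate block and leaving out each library. Some genes of the pathway list are counted in it but not reported singly here.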

Additional observations from a re-analysis of the deposited data

Results flagged for a closer look

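A test of the difference between the effect of deletion at E10 and that at E15 (edgeR interaction, log2 units, E10 effect minus E15 effect) singled out 8 members among the largest differences. The E10 effect was the more positive for Gstk1 by 7.07, Gsta1 by 5.59, Gstm6 by 4.87 and Ugt8a by 9.43. The Ugt8a value rests on E18 libraries that are all at or under 3 counts, and without WT E18 small intestine replicate 2 it was 5.11 with an adjusted p of 1. Gsta1 rose at both stages, by 7.44 at E10 and 1.85 at E15, so the difference is one of size. For Gstm6 the effect was 3.71 at E10 and -1.16, not called, at E15.

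For Ugt genes the difference had the other sign: -4.57 for Ugt1a9, -4.21 for Ugt2b35, -5.23 for Ugt2b36 and -5.22 for Ugt2b5. The 3 Ugt2b genes are adjacent on chromosome 5 and resemble each other in sequence. Strain does not differ between the deleted groups of the 2 stages, and Cre driver, tamoxifen, age and preparation do.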

How the results depend on the processing

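Of 294 calls of members over the 13 comparisons, RLE scaling kept 288, DESeq2 284, no filter on low counts 291 and scaling by total counts 269, with 0 reversed in each. Fits on the compared groups alone kept 253 of 272, but from E12 to E14 in the small intestine they left 2 calls of members against 16. The share of all genes called fell there as well, to 1.497% against 16.2%. Leaving out each library kept 1225 of 1345 calls. Sult5a1 in small intestine from E16 to E18 ranged from -6.02 to 0.00 and was 0.00 without WT E16 small intestine replicate 2, after which no count was left. Counts of called members then ranged from 29 to 34 for deletion at E10, 27 to 28 at E13, 13 to 14 at E15, 7 to 15 in the adult, 27 to 30 for the difference between E10 and E15, 23 to 24 for forestomach against hindstomach, 28 to 30 for forestomach and 18 to 21 for hindstomach against small intestine, 15 to 17 and 15 to 18 for forestomach and hindstomach from E14 to E16, and 10 to 17, 18 to 22 and 22 to 25 for the 3 intervals of small intestine. In most of the fits with a library left out the share of all genes called fell as well, so these ranges are not particular to members. Samples that share a replicate number did not deviate together (correlations from -0.152 to 0.0211), and the labels give the number no meaning. A replicate block kept 290 calls, with 32 members called for deletion at E10 against 34 and 51.5% of all genes called in either fit.

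Splits of higher and lower calls also moved by over 10 points for DESeq2 in forestomach from E14 to E16 (14 and 6 against 10 and 7). DESeq2 called 36.8% of all genes there, against 37.7%. In small intestine from E12 to E14 its split was 11 and 6 against 12 and 4, with 18.55% of all genes called against 16.2%. Splits moved as much for E14 in place of E16 in forestomach against hindstomach (2 and 19 against 6 and 21, with 8.46% of all genes called against 20.1%). With 1 library left out they did so in small intestine from E12 to E14, at 6 and 4 without WT E12 replicate 1, 11 and 6 without its replicate 2 and 7 and 5 without WT E14 replicate 1, and in hindstomach from E14 to E16, at 12 and 3 against 12 and 6 without WT E16 replicate 1.

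Using E14 in place of E16 gave 13 of 58 calls the other sign, and the cause was not tested; Gstt1 in both comparisons and Gstm5 against small intestine were called the other way, and the other 10 were not called. For forestomach against hindstomach these were Gstm5 (-0.40), Gstt1 (-2.45), Sult2b1 (-0.41), Sult4a1 (0.57), Ugt1a9 (0.0583) and Ugt8a (0.39). For forestomach against small intestine they were Gsta2 (0.25), Gstm5 (-1.15), Gstp2 (0.49), Gstt1 (-1.98), Gstz1 (0.0640), Sult1a1 (-0.75) and Ugt1a9 (0.34). Setting the libraries labelled E13 against WT E18 changed the sign of Gstm5 (0.66), Sult1b1 (-0.15), Sult2b1 (-2.28), Sult4a1 (0.43), Ugt1a7c (-0.19) and Ugt2a3 (-0.81), of which Sult2b1 was called the other way and 5 were not called. These 2 settings and scaling by total counts were added after seeing the data. Low counts limit several members, such as Ugt1a2, Sult6b1 and Gsto2, whose highest library held 14, 55 and 88 counts.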
